A study of Mus musculus with 6 samples.

Results

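The genes described here are the members of cytochrome P450 families 1 to 4 measured in mouse liver. They are the genes whose symbol in the array annotation begins with Cyp1, Cyp2, Cyp3 or Cyp4 followed by a subfamily letter and a number, so that the sterol and vitamin families with higher numbers, such as Cyp7 and Cyp27, were left out. The rule gave 56 genes out of 18193 measured genes, read from 69 probe sets that name 1 gene each. Where a gene had several probe sets, the one with the largest average value across both genotypes stood for it. Liver RNA of Mir137-/- and Mir137+/+ mice was measured at postnatal day 14 on Affymetrix whole-genome mouse arrays, with 3 arrays and 3 mice per genotype. Mir137-/- mice lack miR-137, a brain-enriched microRNA, in the whole body from the germline on, so these data do not separate an action in liver from one elsewhere. The allele was made in E14 embryonic stem cells, where Cre removed a floxed region, the clones were injected into C57BL/6 blastocysts, and both genotypes came from matings of heterozygous mice. No treatment was given in either group, and the methods name male mice. The question was which P450 transcripts of the liver differed between the genotypes, and by how much.

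Cytochromes P450 of families 1 to 4 are haem enzymes of the endoplasmic reticulum that insert 1 oxygen atom into a substrate, with electrons passed on by P450 oxidoreductase and cytochrome b5. Families 1 to 3 mostly act on drugs, plant and combustion products, steroids and bile acids, whereas family 4 mostly hydroxylates the far end of fatty acids and of eicosanoids such as leukotrienes. In the liver their genes are switched by nuclear receptors that sense foreign compounds, bile acids or fatty acids, and in adult rodents many also differ between the sexes under the control of growth hormone (GH).

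Of the 56 genes, 12 were lower and 3 were higher in Mir137-/- liver, and 41 were not called. The call required a limma p below 0.05 after Benjamini-Hochberg adjustment over all 18193 genes, together with a difference above 1.5-fold. Over all genes, 3.34% were called lower and 2.34% higher by the same rule, against 21.4% and 5.36% of the P450 genes. The median difference, always given as Mir137-/- minus Mir137+/+ on the log2 scale, was -0.13 over the P450 genes and 0.00 over all genes. The difference was below 0 in 40 of the 56 genes and above it in 16. The values of the genotypes did not overlap for 31 of the 56 genes, 23 of them lower and 8 higher in Mir137-/-, whereas 32.3% of all genes did not overlap, 17.4% lower and 14.9% higher. Family 2 held 9 of the genes called lower among its 35 members and 1 called higher. Family 1 had 1 gene called lower of 3, family 3 had 1 of 5, and family 4 had 1 lower and 2 higher of 13.

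**Figure D1:**
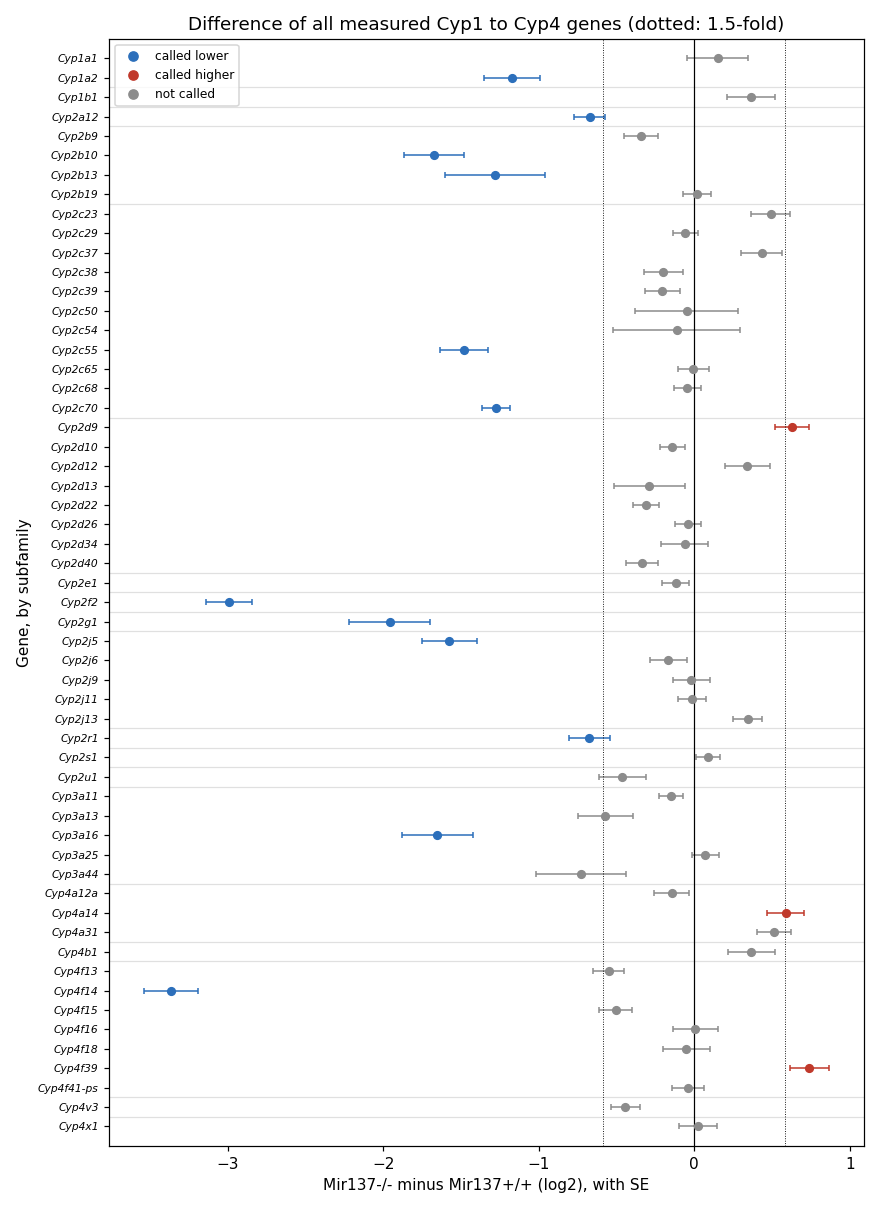
Difference between Mir137-/- and Mir137+/+ liver (log2, horizontal axis) for each of the 56 genes, ordered by subfamily, with bars for the standard error (SE) of the limma fit and dotted lines at 1.5-fold. Blue marks the 12 genes called lower, red the 3 called higher and grey the 41 not called; 6 of the blue points lie below -1.5 and none of the red points lies above 1.

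Some arrays differed from the others in ways that the genotype does not give. Xist, the transcript of the inactive X chromosome, read 10.91 and 10.81 on Mir137+/+ replicates 2 and 3 and between 3.66 and 4.24 on the other 4 arrays, although the methods name male mice. Transcripts of the Y chromosome were low on the same 2 arrays. Eif2s3y read 2.06 and 2.51 there against 8.46 to 8.62 on the other 4. Kdm5d read 1.77 and 2.04 against 6.49 to 7.23, and Uty 1.85 and 2.15 against 6.08 to 6.60. Skeletal muscle transcripts were high on Mir137-/- replicate 1, where Acta1 read 11.38 against 4.68 to 5.84 elsewhere. Exocrine pancreas transcripts were high on Mir137-/- replicate 2 and Mir137+/+ replicate 2, as Cpa1 shows with 7.70 and 6.28 against 3.40 to 3.70 on the others. Of 8 measured hepatocyte markers none was called by limma and 2 had an unadjusted p below 0.05, the median of their differences was -0.02, and Alb lay between 13.71 and 13.79 on all 6 arrays. The highest value of any probe set was 13.79. Whether probe sets this bright can show a change in hepatocyte share was not tested. Among the lists for Kupffer cells (8 genes), liver endothelium (8) and cholangiocytes (6) none was called either, with 2, 2 and 1 at an unadjusted p below 0.05. Of 9 stellate cell and fibroblast markers 1 was called, Lrat, with a difference of -0.67. Kdr of endothelium, at 0.48, and Lum of fibroblasts, at -0.51, passed the adjusted limma p (0.015 and 0.013) but not the fold. Over all genes 5.67% were called and 4877 of 18193 had an unadjusted limma p below 0.05. Counts in lists this short therefore cannot show that the cell content was alike. In whole liver, fewer cells that express a gene and less RNA per cell cannot be told apart.

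The largest falls were those of Cyp4f14 and Cyp2f2. Cyp4f14, which inactivates leukotriene B4 by hydroxylation, had log2 values of 5.98, 5.30 and 5.87 on the Mir137-/- arrays and of 9.21, 8.96 and 9.08 on the Mir137+/+ arrays. The genotypes lay far apart, with the highest Mir137-/- value more than 2 log2 units under the lowest Mir137+/+ value. Its difference was -3.37 (SE 0.18, adjusted p = 1.3e-04 by limma), so its level was 10.3-fold lower, and only 5 of the 18193 genes had a more negative difference. Cyp2f2, the enzyme that activates naphthalene in the airways and that in liver marks the periportal zone, read 7.40, 7.90 and 7.38 in Mir137-/- and 10.66, 10.46 and 10.54 in Mir137+/+. Here too all 3 Mir137-/- values lay more than 2 log2 units below every Mir137+/+ value. The difference was -2.99 (SE 0.15, adjusted p = 1.3e-04), 7.96-fold lower.

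The stretches of 250 bases just before the annotated start of both genes are shown because these genes had the largest changes. They are RefSeq sequence of GRCm38.p6, 5′ to 3′ along the gene, at chr17:32917357-32917606 on the minus strand for Cyp4f14 and chr7:27119705-27119954 on the plus strand for Cyp2f2. Capitals mark matches to the 9 short motifs searched, on either strand. In Cyp4f14 these are the aryl hydrocarbon receptor core GCGTG and the C/EBP motif TTGCNNAA, both on the opposite strand. In Cyp2f2 the match is the nuclear receptor half-site AGGTCA.
Cyp4f14: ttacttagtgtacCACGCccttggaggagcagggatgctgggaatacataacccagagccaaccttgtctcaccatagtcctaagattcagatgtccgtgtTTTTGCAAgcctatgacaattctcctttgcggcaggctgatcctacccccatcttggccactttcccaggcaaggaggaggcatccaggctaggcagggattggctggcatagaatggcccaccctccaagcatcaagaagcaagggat
Cyp2f2: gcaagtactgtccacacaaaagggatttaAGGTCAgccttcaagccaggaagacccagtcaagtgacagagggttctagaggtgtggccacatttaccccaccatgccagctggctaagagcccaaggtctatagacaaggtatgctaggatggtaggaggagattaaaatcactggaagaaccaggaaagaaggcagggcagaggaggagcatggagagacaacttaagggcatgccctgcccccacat
The stretches have no motif match in common. Aligned from end to end, 146 of the 250 bases were identical with 90 gap positions, which is 49.5% of the alignment. Set side by side without gaps, 75 of the 250 were identical.

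Cyp2f2 lies in a run of neighbouring genes with the Cyp2a, Cyp2b, Cyp2g, Cyp2s and Cyp2t genes, and 5 of the 12 genes called lower were in this run. It holds 17 genes and pseudogenes of these families in the order of the reference, of which 8 were measured with a probe set of their own. None of the 8 was called higher, and their median difference was -0.98. Cyp2g1, best known from the olfactory lining, read 4.98, 4.34 and 4.58 in Mir137-/- against 7.18, 6.23 and 6.37 in Mir137+/+. All Mir137-/- values were below all Mir137+/+ values and near the median of all values on the arrays, 4.9. The difference was -1.96 (SE 0.26, adjusted p = 0.0035). Cyp2a12, a hydroxylase of steroids and bile acids, read 11.53, 11.56 and 11.76 against 12.38, 12.29 and 12.20. This difference of -0.67 (SE 0.10, adjusted p = 0.0053) was among the smallest that were called, though the genotypes were clearly apart. Cyp2s1, at the edge of the run, differed by 0.09 and was not called. A probe set that names both Cyp2a5 and Cyp2a4, genes of this run, counts for neither. It read 9.30, 9.42 and 8.66 in Mir137-/- against 9.53, 9.30 and 9.39 in Mir137+/+. These groups overlapped, and the difference of -0.28 was not called (SE 0.19, adjusted p = 0.44 by limma over all probe sets).

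Of 4 Cyp2b genes 2 were lower. Cyp2b10, the classic target of the constitutive androstane receptor (CAR) that is induced by phenobarbital, read 5.87, 5.89 and 5.28 in Mir137-/- and 7.58, 7.40 and 7.08 in Mir137+/+. The groups were separated by more than 1 log2 unit, and the difference was -1.67 (SE 0.19, adjusted p = 0.0019). The other 2 probe sets of Cyp2b10 gave larger differences, of -2.65 and -2.57, so that the size of its fall depended on the probe set and its direction did not. Cyp2b13, a steroid hydroxylase found mainly in adult female liver, read 7.76, 6.48 and 7.63 against 8.91, 8.41 and 8.40. Mir137-/- replicate 2 was more than 1 log2 unit below the other Mir137-/- arrays, which gave this gene the largest SE of those called, 0.32, beside a difference of -1.28 (adjusted p = 0.040). Cyp2b9, its close relative with the same adult sex bias, read 10.10, 10.19 and 9.89 against 10.51, 10.37 and 10.33. These groups did not overlap but differed by only -0.34 (SE 0.11, adjusted p = 0.077) and were not called. Cyp2b19, a gene of skin, stayed between 2.56 and 2.76 on all 6 arrays, far below the median of all values.

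The stretches before the starts of Cyp2b13 and Cyp2b9 are shown because the genes differ in their call and these sequences hardly differ. They lie on the plus strand at chr7:26061245-26061494 and chr7:26173159-26173408 of GRCm38.p6, and the capitals mark the C/EBP motif and then the nuclear receptor half-site.
Cyp2b13: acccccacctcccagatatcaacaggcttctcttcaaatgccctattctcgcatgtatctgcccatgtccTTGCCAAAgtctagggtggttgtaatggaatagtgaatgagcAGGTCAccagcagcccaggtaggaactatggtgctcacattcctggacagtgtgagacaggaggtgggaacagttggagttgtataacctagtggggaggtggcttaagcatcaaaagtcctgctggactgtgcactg
Cyp2b9: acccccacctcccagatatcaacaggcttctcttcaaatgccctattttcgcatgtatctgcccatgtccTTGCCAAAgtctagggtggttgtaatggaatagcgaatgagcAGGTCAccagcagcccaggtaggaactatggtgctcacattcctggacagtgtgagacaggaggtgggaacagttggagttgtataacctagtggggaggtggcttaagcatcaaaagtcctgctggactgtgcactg
Of the 250 positions 248 were identical, without a gap, and the same 2 motif matches stood at the same places. Whether the differences of -1.28 and -0.34 differ from each other was not tested, nor was it tested whether the probe sets of such close copies share signal.

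**Figure D2:**
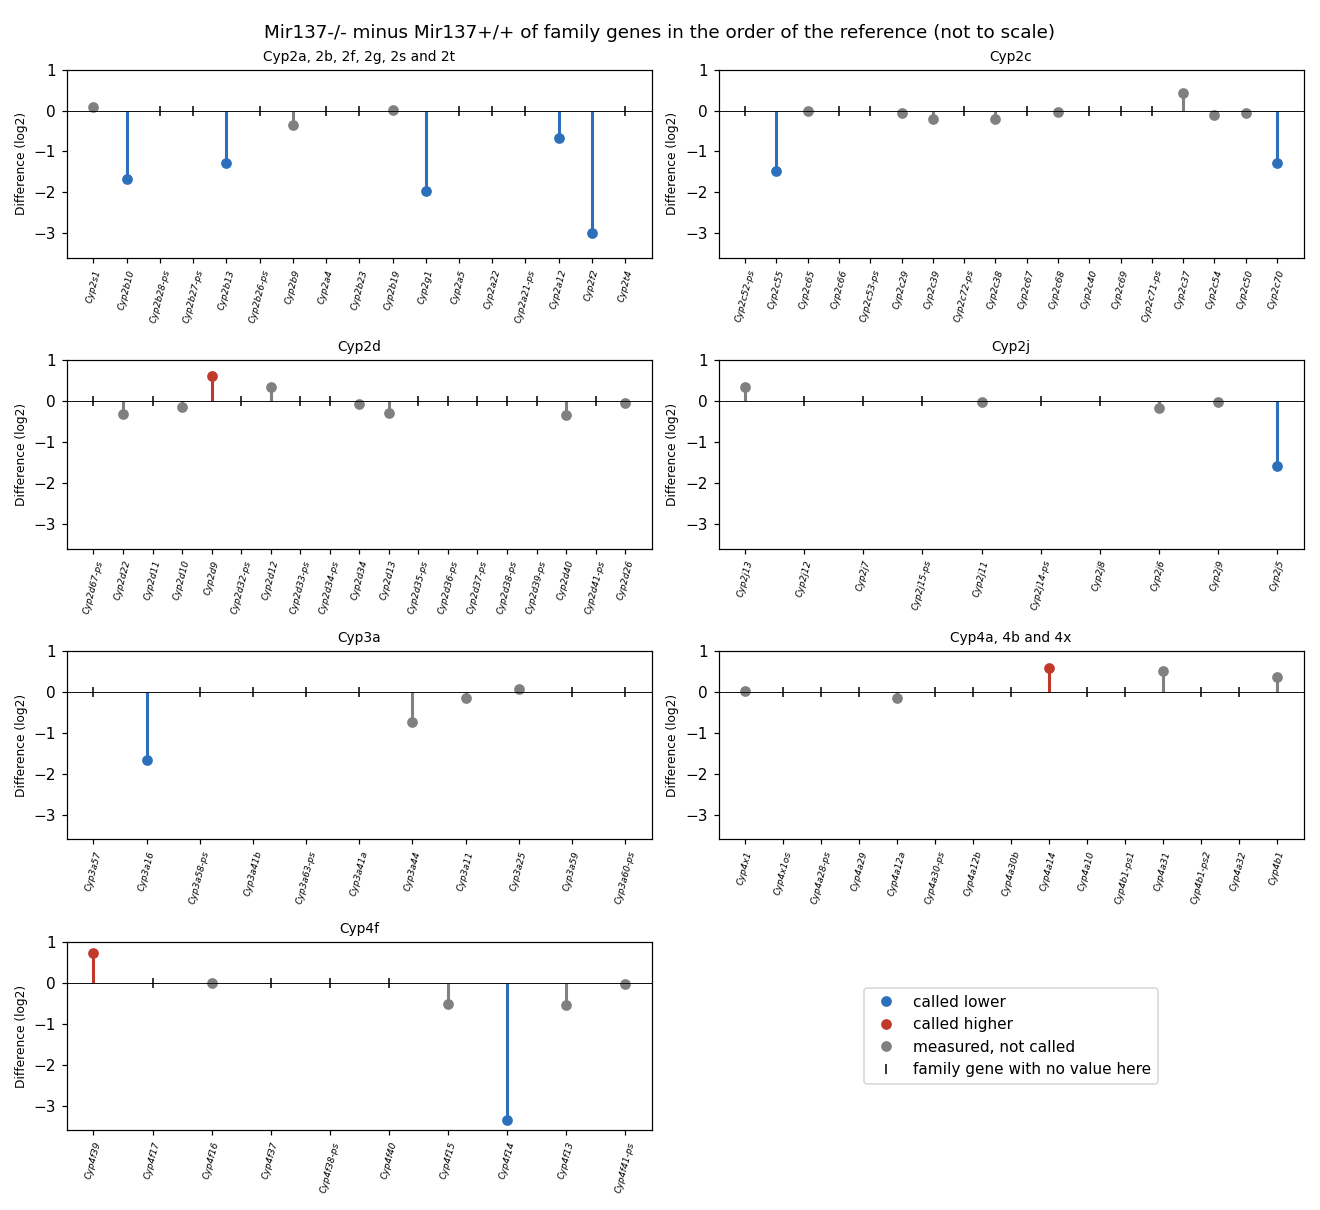
Difference between Mir137-/- and Mir137+/+ liver (log2, vertical axis) of the measured genes in 7 runs of neighbouring P450 genes, in the order of the reference and not to scale. A tick on the zero line is a gene or pseudogene with no probe set of its own. In the run with the Cyp2a, Cyp2b, Cyp2f and Cyp2g genes 5 of 8 measured genes are blue (called lower), whereas in the Cyp2c run 2 of 10, in the Cyp2d run 0 of 8 and in the Cyp2j run 1 of 5 are.

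In the Cyp2c subfamily, which makes epoxides and alcohols of fatty acids and also acts on bile acids, 2 of 11 genes were called and both were lower. Cyp2c70, the enzyme that forms muricholic acids in rodents, read 11.10, 10.90 and 10.95 in Mir137-/- and 12.33, 12.23 and 12.22 in Mir137+/+. Every Mir137-/- value was more than 1 log2 unit below every Mir137+/+ value, and the arrays of each genotype lay close together. The difference of -1.28 (SE 0.09, adjusted p = 3.9e-04) was 2.42-fold. Cyp2c55, an arachidonic acid hydroxylase, read 5.84, 5.35 and 5.48 against 7.27, 6.97 and 6.88, again with no overlap. Its difference was -1.48 (SE 0.15, adjusted p = 0.0015). These genes are the second and the last of the 18 genes and pseudogenes in the order of the Cyp2c run, and the 8 measured genes between them had differences from -0.21 to 0.43 with no call.

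None of the other 9 Cyp2c genes was called. Cyp2c68 read 12.09, 11.93 and 12.08 against 12.11, 12.02 and 12.11, and its groups overlapped at a difference of -0.05 (SE 0.09). Cyp2c29, an epoxygenase induced through CAR, differed by -0.06. Cyp2c37 was higher on all Mir137-/- arrays, with 12.04, 11.75 and 12.02 against 11.67, 11.57 and 11.27, but its difference of 0.43 missed the call (SE 0.13, adjusted p = 0.075). Cyp2c23, an epoxygenase gene that lies apart from the Cyp2c run, read 10.44, 10.25 and 10.61 against 10.09, 9.98 and 9.76. Its difference of 0.49 passed the adjusted p (0.044) and not the fold. Cyp2c50 and Cyp2c54 had the largest SEs of all 56 genes, 0.33 and 0.41, where the median SE was 0.12. Cyp2c50 read 10.07, 9.31 and 10.42 in Mir137-/- and 10.57, 9.88 and 9.50 in Mir137+/+, and Cyp2c54 read 6.70, 6.11 and 7.09 and then 7.63, 6.65 and 5.96. Both genes ranked the arrays in the same order within each genotype, and whether their probe sets share signal was not tested.

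In the Cyp1 family, the targets of the aryl hydrocarbon receptor, 1 of 3 genes was called. Cyp1a2, a liver enzyme that clears caffeine and activates aromatic amines, read 9.33, 8.60 and 9.19 in Mir137-/- and 10.19, 10.25 and 10.20 in Mir137+/+. All Mir137-/- values lay lower, with an SD of 0.39 (n = 3) against 0.03 (n = 3) for the Mir137+/+ arrays. The difference was -1.17 (SE 0.18, adjusted p = 0.0059). Cyp1a1, its neighbour, which needs an inducer in liver, read 4.21, 3.81 and 3.61 against 4.07, 3.67 and 3.44 and was not called at 0.15 (adjusted p = 0.69). Cyp1b1, expressed mainly outside the liver, differed by 0.36 with overlapping groups. The means of Cyp1a1 and Cyp1b1 in both genotypes were below the median of all values.

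In the Cyp3a subfamily, which handles the widest range of drugs and steroids, 1 of 5 genes was called, and 4 of the 5 differences were below 0. Cyp3a16, a form of fetal and newborn liver, read 7.78, 7.77 and 8.59 in Mir137-/- and 9.60, 9.96 and 9.54 in Mir137+/+. Mir137-/- replicate 3 was the highest of its group and still below the lowest Mir137+/+ array. The difference was -1.65 (SE 0.23, adjusted p = 0.0040). Cyp3a44 had its highest Mir137-/- value on the same array, with 7.93, 7.50 and 8.76 against 8.70, 9.04 and 8.64. Here the groups overlapped, and a difference of -0.73 was not called (SE 0.29, adjusted p = 0.15). A probe set that names both Cyp3a41a and Cyp3a41b, and so counts for neither, read 8.55, 8.62 and 9.23 against 10.59, 11.36 and 11.14. In the fit over all probe sets, where 2.58% were called lower and 1.94% higher, it was called lower with a difference of -2.23 (SE 0.23, adjusted p = 0.0012), and Mir137-/- replicate 3 was again the highest of its group. Whether the probe sets of Cyp3a16, Cyp3a44 and the Cyp3a41 genes share signal was not tested.

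Cyp3a11, the main adult drug-metabolizing form, and Cyp3a25 showed no such fall. Cyp3a11 read 12.84, 12.78 and 12.81 in Mir137-/- and 12.94, 12.98 and 12.97 in Mir137+/+. All 3 Mir137-/- values were lower, by a difference of -0.15 that was not called (SE 0.08, adjusted p = 0.25). Cyp3a25 differed by 0.07 with overlapping groups. Cyp3a13, which lies outside the run of the other Cyp3a genes, read 9.16, 9.78 and 9.15 against 10.09, 9.87 and 9.85, and its difference of -0.57 (SE 0.18, adjusted p = 0.075) was not called.

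The stretches before the starts of Cyp3a16 and Cyp3a11 are shown as a pair of which 1 gene was called lower and the other was not. They lie on the minus strand of GRCm38.p6 at chr5:145469724-145469973 and chr5:145879855-145880104. Capitals mark the FOXA motif TGTTTAC, the letters TATAAA, the hepatocyte nuclear factor 4 motif CAAAGTCCA and, in Cyp3a11, the nuclear receptor half-site AGGTCA.
Cyp3a16: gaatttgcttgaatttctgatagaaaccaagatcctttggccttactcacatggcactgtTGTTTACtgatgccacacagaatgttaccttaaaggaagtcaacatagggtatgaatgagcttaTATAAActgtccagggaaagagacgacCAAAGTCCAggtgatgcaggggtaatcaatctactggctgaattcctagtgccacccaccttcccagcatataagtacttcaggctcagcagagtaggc
Cyp3a11: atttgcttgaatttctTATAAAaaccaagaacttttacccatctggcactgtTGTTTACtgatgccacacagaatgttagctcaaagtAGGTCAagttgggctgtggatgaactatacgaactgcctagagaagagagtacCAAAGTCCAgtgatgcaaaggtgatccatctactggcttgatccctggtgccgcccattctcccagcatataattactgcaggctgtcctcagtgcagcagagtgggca
In an alignment with 22 gap positions, 200 bases were identical. Both stretches held TGTTTAC and CAAAGTCCA, and the half-site was in Cyp3a11 alone.

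Of 5 Cyp2j genes 1 was called. Cyp2j5, an arachidonic acid epoxygenase of kidney and liver, read 9.0, 8.78 and 9.48 in Mir137-/- and 10.81, 10.67 and 10.51 in Mir137+/+. The groups were about 1 log2 unit apart at their nearest, with a difference of -1.58 (SE 0.18, adjusted p = 0.0018). A second probe set of Cyp2j5 was lower by more, with a difference of -2.06. The other 4 Cyp2j genes had differences from -0.17 to 0.34 and none was called. Cyp2r1, the vitamin D 25-hydroxylase of liver, read 5.12, 4.91 and 5.39 against 5.78, 5.74 and 5.93. Its groups were separate and its difference of -0.68 (SE 0.13, adjusted p = 0.017) was called. Cyp2u1, a fatty acid hydroxylase, read 5.0, 4.45 and 4.45 against 5.09, 5.08 and 5.12 and was not called at -0.46 (SE 0.15, adjusted p = 0.091). Its second, dimmer probe set went the other way, at 0.21 with overlapping groups, and was not called.

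Cyp2d and Cyp2e genes showed little change. Cyp2d9, a testosterone 16-alpha-hydroxylase of adult male liver, was the single Cyp2d gene called and was higher, with 10.21, 10.48 and 10.15 in Mir137-/- and 9.57, 9.70 and 9.68 in Mir137+/+. The groups did not overlap, and the difference was 0.63 (SE 0.11, adjusted p = 0.010). The other 7 Cyp2d genes lay between -0.34 and 0.34. Among them Cyp2d26 read 12.60, 12.53 and 12.65 against 12.66, 12.68 and 12.56, an overlap with a difference of -0.04. Cyp2e1, the ethanol-oxidizing enzyme of pericentral hepatocytes, read 13.12, 12.91 and 13.04 against 13.13, 13.13 and 13.17. The groups just missed each other, and the difference of -0.12 was not called (SE 0.09, adjusted p = 0.44).

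In family 4, 1 of 3 Cyp4a genes, fatty acid omega-hydroxylases induced through PPARA, was called, and it was higher. Cyp4a14 read 12.03, 12.06 and 12.26 in Mir137-/- and 11.32, 11.70 and 11.57 in Mir137+/+. All Mir137-/- values were higher, and the difference of 0.59 (SE 0.12, adjusted p = 0.021) was 1.5-fold, just past the fold required. Cyp4a31 read 10.85, 11.15 and 11.08 against 10.60, 10.55 and 10.39, also without overlap, and its difference of 0.51 (SE 0.11, adjusted p = 0.023) was just short of that fold. A second probe set of Cyp4a31 was called higher at 0.61. A probe set that names both Cyp4a31 and Cyp4a10 read 12.34, 12.57 and 12.46 against 11.70, 11.69 and 11.46 and was also called higher, with a difference of 0.84 (SE 0.11, adjusted p = 0.0034 over all probe sets). Cyp4a12a, a form of adult male liver and kidney, lay between 2.52 and 2.99 on all arrays, with overlapping groups. Cyp4b1, mainly a lung enzyme, differed by 0.37 and Cyp4x1 by 0.02, and neither was called.

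The Cyp4f genes did not move together. Beside the fall of Cyp4f14, its neighbours Cyp4f13 and Cyp4f15, which also hydroxylate eicosanoids, were lower by less. Cyp4f13 read 7.04, 7.27 and 7.02 in Mir137-/- against 7.74, 7.60 and 7.64 in Mir137+/+, a difference of -0.55 (SE 0.10, adjusted p = 0.012) that passed the adjusted p and not the fold. Cyp4f15 read 9.74, 10.07 and 9.89 against 10.48, 10.42 and 10.32 and stood likewise, at -0.51 (SE 0.11, adjusted p = 0.022). In both genes the genotypes did not overlap. Cyp4f39, which serves the skin barrier, was called higher with 4.26, 4.55 and 4.08 against 3.60, 3.60 and 3.47, a difference of 0.74 (SE 0.13, adjusted p = 0.010). Its means in both genotypes were below the median of all values, where no detection call was at hand. Cyp4f16 and Cyp4f18 differed by 0.01 and -0.05. A probe set that names both Cyp4f37 and Cyp4f16 differed by -0.007 with overlapping groups and was not called. Cyp4v3, a fatty acid hydroxylase known from the retina, read 9.62, 9.65 and 9.51 against 10.17, 10.01 and 9.93, and its difference of -0.44 (SE 0.10, adjusted p = 0.024) fell short of the fold, whereas its second probe set, at -0.67, was called lower.

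**Figure D3:**
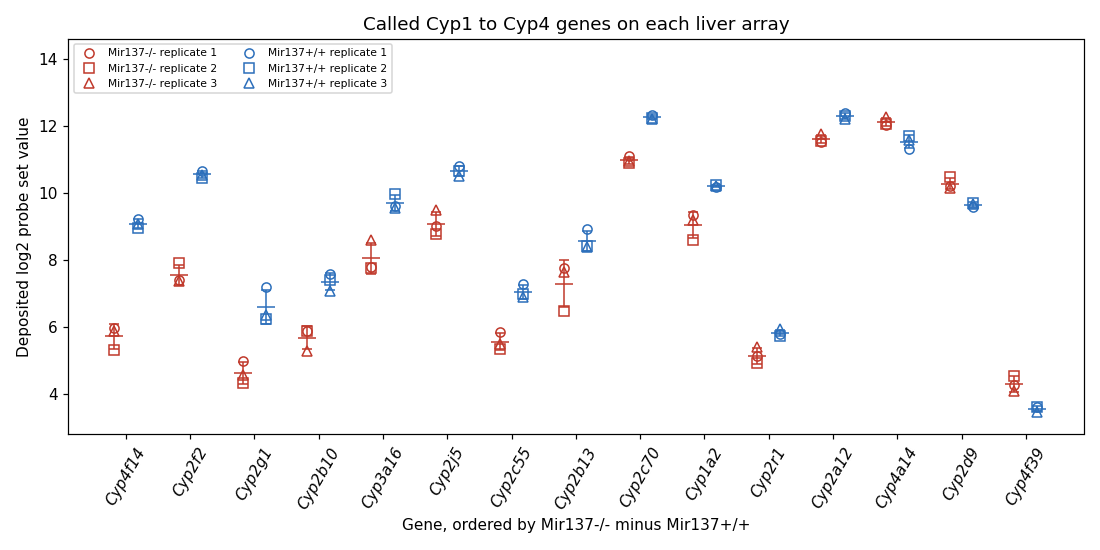
Deposited log2 value (vertical axis) of the 15 called genes on each of the 6 arrays, Mir137-/- in red and Mir137+/+ in blue, with the marker shape giving the replicate number and the bars the mean and SD (n = 3). The genotypes do not overlap in any of the 15 genes; the gap is widest for Cyp4f14 and Cyp2f2 and narrowest for the genes with differences near 0.6 in size.

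In 16 of the 56 genes the means of both genotypes were below the median of all values, and of these Cyp4f39 alone was called, 6.25% where 1.28% of all genes with means this low were. Of the other 40 genes, 12 were called lower and 2 higher, 30% and 5% where 4.69% and 3.37% of all genes above that level were, and their median difference was -0.32. The threshold mattered for the genes of small difference. Without the fold required, 16 of the 56 genes were lower and 5 higher, against 6.9% and 5.06% of all genes. With the fold and an unadjusted limma p below 0.05, 13 were lower and 3 higher, against 3.59% and 2.67% of all genes. With the methods' t-test after adjustment, 6 were lower and none higher, against 1.56% and 1% of all genes; at an unadjusted p below 0.05, with no fold required, it gave 20 and 8, against 13.6% and 10.9% of all genes.

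**Figure D4:**
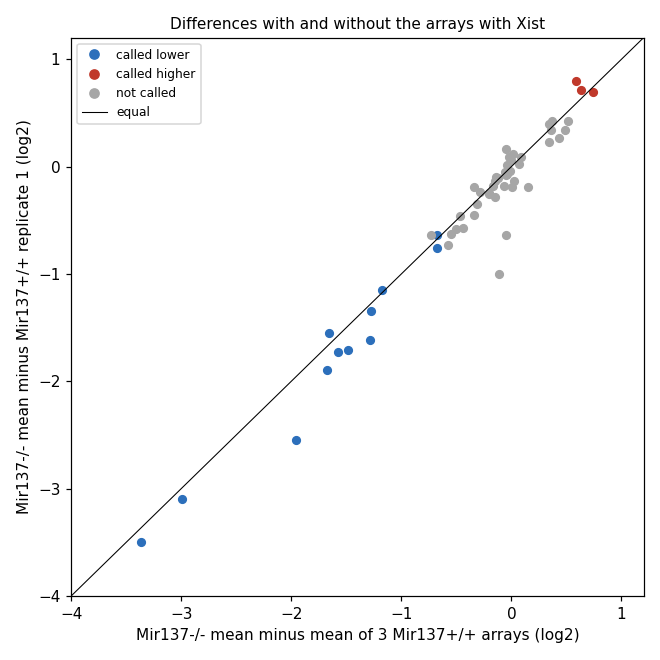
Difference of each of the 56 genes against the mean of all 3 Mir137+/+ arrays (horizontal axis, log2) and against Mir137+/+ replicate 1 alone (vertical axis, log2), which leaves out both arrays with Xist; the line marks equal values. All 12 blue points (called lower) lie below -0.6 and all 3 red points (called higher) lie above 0.6. Their sign was fixed, since the genotypes do not overlap in these genes. The 2 grey points far under the line are Cyp2c50 and Cyp2c54.

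Both arrays with high Xist were Mir137+/+, so sex as read from Xist and genotype are partly mixed. With sex as a term, each difference becomes that of the Mir137-/- mean against Mir137+/+ replicate 1 alone, with the spread pooled in limma. All 15 called genes kept their direction against that array, with differences from -3.49 for Cyp4f14 to 0.80 for Cyp4a14. Their genotypes do not overlap, so the direction against any 1 Mir137+/+ array was fixed and is no separate support. In that fit 8 genes were called lower and 1 higher, where 1.42% and 1.01% of all genes were. Cyp4f14, Cyp2f2, Cyp2g1, Cyp2b10, Cyp2j5, Cyp2c55, Cyp2c70, Cyp2a12 and Cyp4a14 stayed called. Cyp1a2, Cyp3a16, Cyp2b13, Cyp2r1, Cyp2d9 and Cyp4f39 did not, with adjusted p from 0.075 for Cyp3a16 to 0.18 for Cyp2r1. When both arrays with Xist were left out, so that 1 Mir137+/+ array remained and the spread came from the Mir137-/- arrays alone, 5 genes were called lower, namely Cyp4f14, Cyp2f2, Cyp2g1, Cyp2c55 and Cyp2c70, and none higher, where 0.401% and 0.297% of all genes were. Leaving out the array rich in muscle transcripts, Mir137-/- replicate 1, kept all 15 calls. Without both arrays with pancreas transcripts Cyp2a12, Cyp2b13, Cyp2d9, Cyp2r1, Cyp3a16, Cyp4a14 and Cyp4f39 were no longer called, and Cyp3a13 and Cyp4f13 were newly called lower, which made 10 lower and 0 higher where 2.14% and 1.25% of all genes were. The part of sex and of these other tissues in the differences was not tested further.

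Sorted by what is known of their control, no class of more than 1 gene was called in all its measured members. Over all genes 3.34% were called lower and 2.34% higher. Of 6 measured genes induced through CAR or the pregnane X receptor 2 were lower, Cyp2b10 and Cyp2c55, and the median of the class was -0.11. Of 3 PPARA-induced genes 1 was higher, Cyp4a14, with a median of 0.51. Of 3 aryl hydrocarbon receptor targets 1 was lower, Cyp1a2. Among 6 measured genes that are female-biased in adult liver, 3 were lower, Cyp2b10, Cyp2b13 and Cyp3a16, and 1 was higher, Cyp4a14, and the median was -1.01. The list held 12 genes, of which Cyp2a4, Cyp2c40, Cyp2c69, Cyp3a41a, Cyp3a41b and Cyp4a10 had no probe set of their own. Shared probe sets differed by -2.23 for Cyp3a41a and Cyp3a41b, -0.28 for Cyp2a4 with Cyp2a5, and 0.84 for Cyp4a10 with Cyp4a31. Of 2 measured male-biased genes, Cyp2d9 was higher and Cyp4a12a was not called, at -0.15. The adult bias was not measured on these arrays. Within the Mir137+/+ group, 3 of the 6 female-biased genes, Cyp2b9, Cyp2b10 and Cyp2b13, were higher on replicate 1, without Xist, than on both replicates with it. Cyp2b13, for example, read 8.91 without Xist and 8.41 and 8.40 with it. Cyp4a14 was lower without Xist, at 11.32, than with it, at 11.70 and 11.57. Cyp3a16 and Cyp3a44 lay between, Cyp3a16 with 9.60 without Xist and 9.96 and 9.54 with it.

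The partners and regulators of P450 enzymes were read from 5 lists with 56 genes, of which 52 were measured. Of the 52, 6 were lower and 2 higher, 15.4% in all where 5.67% of all genes were called, and the median difference was -0.10. None of 5 measured electron donor genes was called by limma and 2 had an unadjusted p below 0.05, as did 4877 of all 18193 genes. Among the electron donors Fdx1, the ferredoxin of mitochondrial P450 enzymes, did not overlap and passed the adjusted p (0.013) but not the fold, at -0.46. Cyb5a, the gene of cytochrome b5, read 12.49, 12.31 and 12.40 in Mir137-/- against 12.55, 12.54 and 12.49 in Mir137+/+. P450 oxidoreductase itself was not analysed here. Of 11 genes for the making and breakdown of haem, 1 was called, Blvrb, a biliverdin reductase, which was higher by 0.82 (SE 0.10, adjusted p = 0.0030). Alas1, the rate-limiting enzyme of haem synthesis in liver, varied within both genotypes, with 10.75, 10.74 and 9.87 against 11.03, 10.45 and 10.01, and differed by -0.04 (SE 0.31).

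Among 15 ligand-activated regulators 2 were lower and 1 was higher. Nr1h4, the bile acid receptor FXR, read 8.40, 8.58 and 8.71 in Mir137-/- and 9.41, 9.32 and 9.31 in Mir137+/+, a clear separation with a difference of -0.78 (SE 0.10, adjusted p = 0.0031). Nr0b2, the repressor SHP that FXR induces, went the other way, with 8.82, 8.86 and 8.55 against 7.78, 8.18 and 7.92 and a difference of 0.78 (SE 0.13, adjusted p = 0.0095). Esr1, the oestrogen receptor alpha, was lower by the same size, at -0.78 (SE 0.11, adjusted p = 0.0037), and of its other 2 probe sets 1 was called lower, at -0.90, and 1 was not, at -0.40. Other receptors known to switch P450 genes were not called. Nr1i3, which encodes CAR, read 9.13, 8.88 and 9.21 against 9.16, 8.97 and 8.74 and differed by 0.12 (adjusted p = 0.64). Nr1i2, the pregnane X receptor, differed by -0.24, Ahr, the aryl hydrocarbon receptor, by -0.20 and Ppara by -0.22, with adjusted p of 0.15, 0.26 and 0.17. The second, dimmer probe set of Ahr differed by 0.11 with overlapping groups, whereas the other probe sets of Nr1i2 and Ppara were below 0.

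Of 12 liver transcription factors 2 were called lower, Cebpb at -0.68 (SE 0.13, adjusted p = 0.013) and Nfe2l2 at -0.88 (SE 0.14, adjusted p = 0.0064). The second probe set of Nfe2l2, which encodes NRF2, was called higher at 1.59, so its direction depended on the probe set. Hnf4a, a main activator of liver P450 genes, read 10.25, 10.22 and 10.54 against 10.73, 10.67 and 10.63. It lay lower on all Mir137-/- arrays by a difference of -0.34 that was not called (SE 0.11, adjusted p = 0.082). The other 3 probe sets of Hnf4a overlapped between the genotypes and differed by -0.05, -0.06 and -0.14, so the lower values were those of 1 probe set. Of 9 regulators of the GH response and of sex bias 2 were lower. Ghr, the GH receptor, read 10.34, 10.30 and 10.33 against 11.12, 11.06 and 11.03, with a difference of -0.75 (SE 0.08, adjusted p = 0.0015). Bcl6, a repressor of female-biased genes in adult male liver, read 4.48, 4.63 and 4.59 against 5.97, 5.76 and 6.60. Its difference was -1.54 (SE 0.20, adjusted p = 0.0030), and its second probe set, at -0.25, was not called. Stat5b, which passes on the GH signal in hepatocytes, differed by -0.26 (SE 0.11, adjusted p = 0.16).

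**Figure D5:**
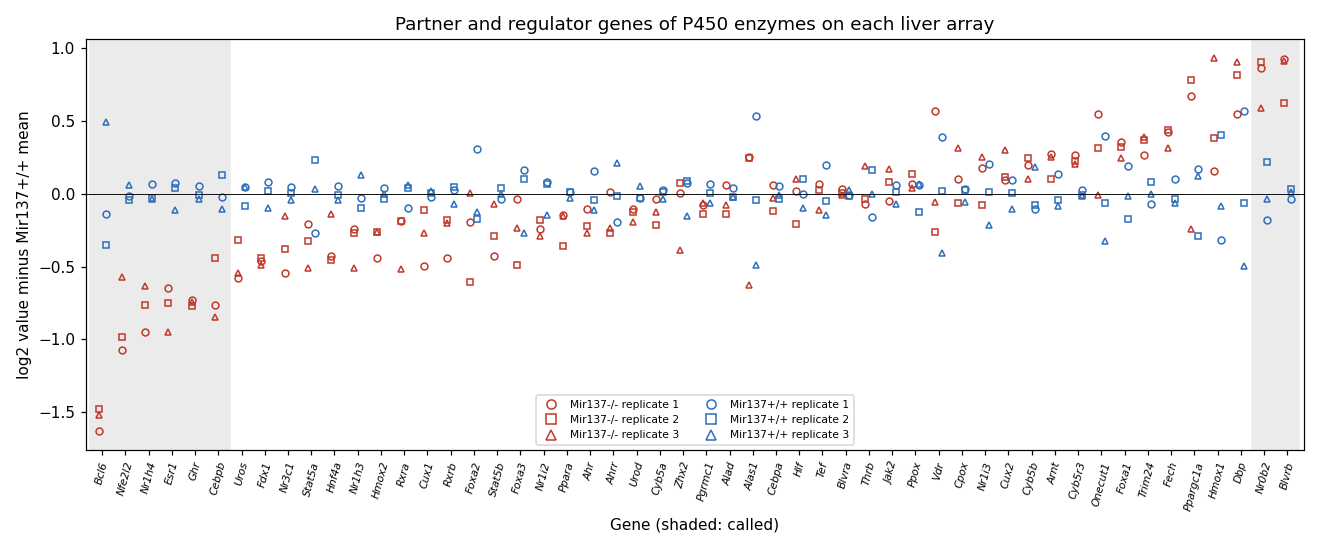
Log2 value minus the Mir137+/+ mean (vertical axis) on each of the 6 arrays for the 52 measured partner and regulator genes, ordered by their difference, Mir137-/- in red and Mir137+/+ in blue. Shading marks the 6 genes called lower at the left, from Bcl6 to Cebpb, and the 2 called higher at the right, Nr0b2 and Blvrb; in all 8 the genotypes do not overlap.

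For 43 of the 56 genes the 250 bases before the start were at hand, 11 of them called lower and 2 higher. The letters TATAAA stood in 17 of the 43, where 13.0% of 27025 mouse promoters of that length hold them, and in 6 of the 11 genes called lower. The nuclear receptor half-site AGGTCA stood in 11 of the 43 (all promoters 13.8%) and in 4 of the 11, Cyp2f2, Cyp2b13, Cyp2c70 and Cyp2j5. The C/EBP motif TTGCNNAA stood in 8 of the 43 (9.55%) and in 3 of the 11, and the FOXA motif TGTTTAC in 6 (3.09%) and in 2 of the 11. The motif CAAAGTCCA was searched after the sequences had been seen and stood in 5 of the 43 (0.381%), among them Cyp2c70 and Cyp3a16, which were called lower. GCGTG stood in 10 (28.2%), the STAT5 motif TTCNNNGAA in 3 (7.18%), the hepatocyte nuclear factor 1 half-site GTTAAT in 2 (6.52%) and TTATGTAA, of the PAR bZIP factors, in 0 (0.862%). None of the 11 genes called lower held the STAT5 motif or GTTAAT in this window, but 11 promoters are too few to read anything from motifs this rare. Both strands were searched, and a match is a run of letters, not a measured binding site.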

How the data were processed

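Total RNA of individual livers was hybridised to GeneChip mouse arrays. The authors deposited 1 table of log2 probe set summaries, 45101 probe sets on 6 arrays. Their methods name RMA with a baseline-to-mean step and the submitters' processing notes name GCRMA without a version. The probe set definition and any filter are not given in the sources used here. Array medians lay between 4.89 and 4.92, and no further normalization was applied.

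After leaving out 64 control probe sets, 34945 of 45037 probe sets had 1 gene symbol in the platform annotation, 932 several and 9160 none. All 56 member symbols matched the RefSeq table of GRCm38. Genotypes were compared with limma 3.58.1 (lmFit and eBayes, R 4.3.3, two-sided) without covariates. RefSeq promoter sequences (GRCm38.p6) were searched in Python 3.11.15. On simulated arrays, 3 per group with 18193 genes, 75 of 100 genes changed by 1 and 99 of 100 changed by 2 (log2) were recovered, and 6 unchanged genes were called.

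The members and lists were chosen with earlier results of these data known. Every called gene, the brightest gene of each subfamily, the 5 uncalled members with the smallest adjusted p and a set of regulators were named by rule; other members, such as Cyp2c50, Cyp2c37, Cyp3a44 and Cyp2u1, were added once their values had been seen. Precision is limited by the number of arrays, since an exact two-sided test of 3 against 3 has 0.1 as its smallest p. Alternatives were another test, threshold, normalization, filter and probe set choice, the replicate block, sex read from Xist, and leaving out arrays.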

Additional observations from a re-analysis of the deposited data

How the results depend on the processing

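Cyp4f14, Cyp2f2, Cyp2c70 and Cyp2c55 were called lower under all 20 alternatives run, and the other called genes under 10 (Cyp2b13) to 19 (Cyp2g1 and Cyp2j5) of them. Of these alternatives, the fit without both Mir137+/+ arrays with Xist has 1 Mir137+/+ array, which is assumed to vary like the Mir137-/- arrays that give all its spread, and so says little about stability. Dropping the fold threshold or the adjustment only loosens the rule, so no call could be lost there. Cyp4f14, Cyp2f2, Cyp2c70 and Cyp2c55 have 1 probe set each, so another probe set choice left their values unchanged. The 12 P450 genes called lower and 3 called higher became 6 and 0 with the methods' t-test after adjustment (13 and 3 in limma with an unadjusted p below 0.05 and the fold), 16 and 5 without a fold threshold, 8 and 1 with a term for sex, read from Xist, 5 and 0 without both Mir137+/+ arrays with Xist (18 and 4 at an unadjusted limma p below 0.05 with no fold required, as 7.46% and 6.17% of all genes), and 10 and 0 without both arrays with pancreas transcripts (18 and 7, as 11.9% and 8.52% of all genes). The 6 partner and regulator genes called lower and 2 called higher became 3 and 1 with the methods' t-test, 8 and 4 without a fold threshold, 3 and 2 with sex as a term, and 1 and 0 without the arrays with Xist. Leaving out 1 array at a time gave 10 to 14 P450 genes lower and 2 to 4 higher; Cyp2b13 was lost without Mir137-/- replicate 3 or any 1 Mir137+/+ replicate, and Cyp4a14 without Mir137-/- replicate 3 or Mir137+/+ replicate 1 or 3. Cyp2r1 was lost without Mir137-/- replicate 2 or Mir137+/+ replicate 1 or 3, and Cyp2d9 without Mir137-/- replicate 2. Cyp4a14 was also lost with quantile normalization and median centring. The median of the P450 genes, -0.13, was -0.31 without the 40% dimmest genes, which leave 39 of them, -0.19 with sex as a term and without the arrays with Xist, and -0.21 to -0.10 with 1 array left out. Among the genes named by rule, whose values were followed through every alternative, the sign turned for Alas1 (0.25 without Mir137-/- replicate 3 and 0.22 without Mir137+/+ replicate 1, from -0.29 to 0.25 with 1 array left out at a time, and -0.58 with sex as a term and without the arrays with Xist), Cyp2c68 (0.005 without Mir137-/- replicate 2, from -0.077 to 0.005 with 1 array left out at a time), Cyp2d26 (0.015 without the arrays with pancreas transcripts), Nr1i3 (-0.087 with sex as a term and without the arrays with Xist) and Nfe2l2 (0.36 as the mean of its probe sets, which differ in sign). Other uncalled genes with small differences turned as well with sex as a term, such as Cyp1a1, from 0.15 to -0.19. The cause of these changes was not tested.

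The genotypes share replicate numbers in the labels. The deviations of arrays with the same number correlated at 0.10, 0.23 and 0.03 across genes, and those of arrays with different numbers at -0.16 to 0.06. The 0.23 was that of replicate 2, where both arrays held pancreas transcripts. Mir137-/- replicate 3 correlated better with Mir137+/+ replicate 1, at 0.06, than with replicate 3. These correlations do not decide whether arrays with the same number belong together, which was not tested. With the replicate block 12 P450 genes were called lower and 3 higher, the same genes, and 588 and 411 of all genes where 607 and 425 were without it. No detection calls were used, so values near the bottom of the range have no stated floor.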
